A study of Mus musculus with 6 samples.

Results

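The transporters that load neurotransmitter into vesicles, and 1 that recovers it, were followed in sensory neurons sorted from embryonic mouse dorsal root ganglia. The genes were taken by symbol and make up 8 of the 41388 genes listed in each library. The 8 are the vesicular glutamate transporters Slc17a6 (VGLUT2), Slc17a7 (VGLUT1) and Slc17a8 (VGLUT3), the vesicular monoamine transporters Slc18a2 (VMAT2) and Slc18a1 (VMAT1), the vesicular acetylcholine transporter Slc18a3 (VAChT), the vesicular GABA and glycine transporter Slc32a1 (VGAT), and Slc1a1. Slc1a1 encodes EAAC1, a glutamate and cysteine transporter of the plasma membrane, so it is not vesicular. The working name of the set also mentions glutaminase, which none of the 8 encodes.

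Cells were sorted for EGFP from lower thoracic to upper sacral dorsal root ganglia, which hold the cell bodies of sensory neurons, at 18.5 days post coitum. All libraries came from C57BL/6 embryos labelled RetFloxedEGFP / Scn10a<tm2(cre)Jnw>, in which Cre made from Scn10a, the gene of the nociceptor sodium channel Nav1.8, switches on EGFP in cells of the Ret population. There were 3 female and 3 male libraries, each named by its sex and letter. Most libraries were pools of 2 embryos and 40 ganglia; the exceptions were male B (3 embryos, 60 ganglia) and male C (1 embryo, 20 ganglia). The genotype field of male C gives the Ret allele alone, while its title also names the Cre. The labels do not say how many copies of the Ret allele each embryo carried. There was no Cre-negative or EGFP-negative group, so the levels are those of 1 sorted population and sex is the only labelled contrast.

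Libraries held between 15.69 and 24.03, in units of 1e+06, counted reads. Scn10a averaged 119 ± 16.8 RPKM and Ret 27.8 ± 3.83 RPKM (SD, n = 6 libraries), and all 5 nociceptor markers on the list (P2rx3, Calca, Mrgprd, Trpv1 and Tac1) exceeded 1 RPKM. RPKM is reads per kilobase of gene length per 1e+06 reads of the library, after scaling of library sizes. It was used to compare genes, but its length is that of all listed exons, whichever transcripts the cells made. Markers of satellite glia and Schwann cells were also present, with 6 of 7 above 1 RPKM and a summed level between 557 and 639 RPKM in female libraries and between 623 and 630.3 RPKM in male libraries. The part of these cells in the members' levels was not tested.

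A vesicular transporter sits in the membrane of a synaptic vesicle and takes up transmitter, powered by a vesicular ATPase that pumps in protons. The transporter a neuron makes is therefore part of what decides which transmitter it can release. Primary sensory neurons are known to release glutamate, with VGLUT2 the common form in small-diameter neurons, VGLUT1 in large-diameter ones and VGLUT3 in low-threshold C-fibres. VMAT2 fills vesicles with dopamine, noradrenaline, serotonin or histamine, and VGAT and VAChT mark inhibitory and cholinergic neurons.

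The promoter windows of the 2 most abundant members and of the member with no read are shown because they stand at the ends of the range of levels. They are RefSeq sequences of build GRCm38.p6, 300 bases each, running 5′ to 3′ from 250 bases before the annotated start to 50 after it. RefSeq promoters were matched for 7 of the 8 members, and Slc18a1 had no entry. Capitals mark matches to 4 motifs, searched on both strands. The cyclic AMP response element was searched as TGACGTCA. The GC box was searched as GGGCGG. The other motifs were the CCAAT box, by its name, and the TATA box, as TATAAA. No 2 matches overlapped in the windows shown.
Slc17a6, chr7:51621580-51621879, plus strand: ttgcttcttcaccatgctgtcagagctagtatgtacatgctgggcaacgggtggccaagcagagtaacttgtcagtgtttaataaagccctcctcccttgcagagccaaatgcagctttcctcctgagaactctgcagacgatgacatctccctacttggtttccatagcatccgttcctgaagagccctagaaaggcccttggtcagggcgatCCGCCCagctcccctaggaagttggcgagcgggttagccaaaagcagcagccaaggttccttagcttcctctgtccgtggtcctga
Slc18a2, chr19:59260628-59260927, plus strand: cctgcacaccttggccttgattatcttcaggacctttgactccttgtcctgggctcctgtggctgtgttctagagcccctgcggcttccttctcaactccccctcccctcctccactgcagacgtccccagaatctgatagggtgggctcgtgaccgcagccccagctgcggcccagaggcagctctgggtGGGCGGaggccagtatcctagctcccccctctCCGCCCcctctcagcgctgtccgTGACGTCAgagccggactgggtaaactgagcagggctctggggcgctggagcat
Slc32a1, chr2:158610508-158610807, plus strand: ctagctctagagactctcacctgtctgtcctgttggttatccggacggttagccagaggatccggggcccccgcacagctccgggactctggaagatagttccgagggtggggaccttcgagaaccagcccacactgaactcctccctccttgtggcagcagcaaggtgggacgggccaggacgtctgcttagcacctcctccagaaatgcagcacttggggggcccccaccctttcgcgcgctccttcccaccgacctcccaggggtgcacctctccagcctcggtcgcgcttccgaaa

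The Slc17a6 window held 1 GC box, beginning 36 bases before the start, and had a GC content of 53.7%. The Slc18a2 window held 2 GC boxes and 1 cyclic AMP response element, which began 4 bases before the start and ran across it, with a GC content of 64.0%. The Slc32a1 window, at 63.3% GC, held none of the 4 motifs. Of 32851 RefSeq promoter windows of the same length, 35.7% held a GC box, 1.79% the cyclic AMP response element, 37.4% a CCAAT box and 13.6% a TATA box, and the median GC content was 52.7%. Slc18a2 was the only member of the 7 with the cyclic AMP response element, and none of the 7 windows held a CCAAT or TATA box. A match describes the letters and is not evidence of binding.

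Slc17a6 stood far above the other members. It had 175, 163 and 107 RPKM in female libraries A, B and C, and 158, 111 and 145 RPKM in male A, B and C. Its mean was 143 ± 28.1 RPKM (SD, n = 6 libraries), which ranked it 413 of 41388 genes. The counts behind these levels numbered 75979 reads. Slc17a6 (ENSMUSG00000030500) lies on the plus strand of chromosome 7, from 51621830 to 51671125, on the deposited GRCm38.p2 coordinates. The 2 lowest libraries were female C and male B, and the ranges of female and male libraries overlapped. These data are from bulk samples, so fewer cells with a transcript and less transcript per cell cannot be told apart.

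The other vesicular glutamate transporters were near the floor. Slc17a7 (ENSMUSG00000070570, chromosome 7, 45163921 to 45176138, plus strand) had 0.107, 0.237 and 0.243 RPKM in female libraries A, B and C, and 0.233, 0.653 and 0.206 RPKM in male A, B and C, from 5 to 46 reads a library. Slc17a8 (ENSMUSG00000019935, chromosome 10, 89574020 to 89621253, minus strand) had 0.187, 0.321 and 0.195 RPKM in female libraries A, B and C, and 0.145, 0.0795 and 0.185 RPKM in male A, B and C, from 9 to 37 reads a library. Male B was highest for Slc17a7 and lowest for Slc17a8. Slc17a6 made up 99.65 ± 0.17% of the summed RPKM of the 3 vesicular glutamate transporters (SD, n = 6), with a range over libraries from 99.3% to 99.8%. By reads pooled over the 6 libraries and divided by gene length, Slc17a6 was 474 times Slc17a7, with single libraries from 171 in male B to 1636 in female A, and 755 times Slc17a8, with single libraries from 509 in female B to 1400.1 in male B. Without male B the pooled ratio to Slc17a7 was 696. On the list of markers for low-threshold C-fibres, Fam19a4 had 95.7, Piezo2 39.1 and Th 14.0 RPKM in the mean. Only Slc17a8 on that list was under 1 RPKM. On the list for large-diameter neurons, 5 of 7 markers exceeded 1 RPKM, with Etv1 highest at 34.9 RPKM and Runx3 lowest at 0.122 RPKM. Which cells gave these levels was not tested.

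Slc18a2 was the second member in level. It had 17.6, 12.3 and 10.5 RPKM in female libraries A, B and C, and 13.7, 13.2 and 16.5 RPKM in male A, B and C, a mean of 14.0 ± 2.68 RPKM from 6443 reads (SD, n = 6). It ranked 3672 of 41388 genes. Slc18a2 (ENSMUSG00000025094) spans 59260878 to 59296012 on the plus strand of chromosome 19. Female A was highest and female C lowest, and the male values lay inside the female range. Within libraries, Slc17a6 was 10.3 ± 1.8 times Slc18a2 by RPKM, from 8.40 in male B to 13.3 in female B.

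**Figure D1:**
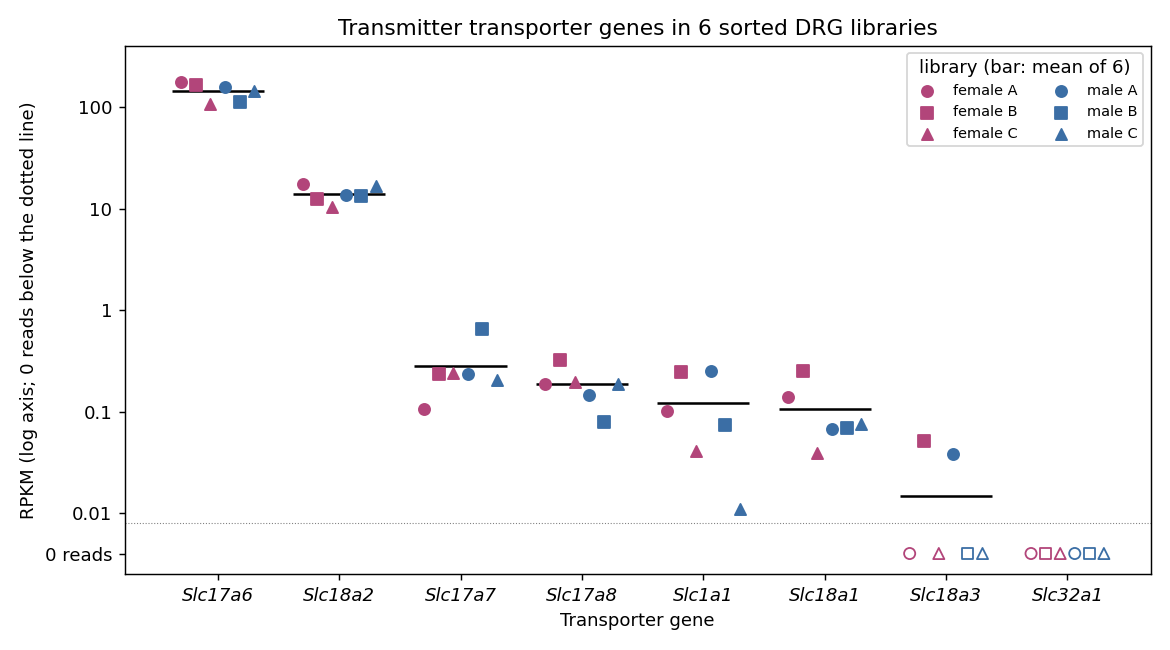
RPKM of the 8 members in each of the 6 libraries on a log axis, with female libraries left of male libraries, bars for the mean of 6 and libraries with 0 reads drawn below the dotted line. Slc17a6 sits above 100 RPKM and Slc18a2 above 10 RPKM in every library, while the other 6 members sit below 1 RPKM.

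VMAT1, VAChT and VGAT were rare or not seen. Slc18a1 (ENSMUSG00000036330, chromosome 8, 69037711 to 69089235, minus strand) had 12, 33 and 5 reads in female libraries A, B and C, and 8, 9 and 6 reads in male A, B and C, a mean of 0.107 ± 0.0776 RPKM (SD, n = 6). Its span overlaps that of Atp6v1b2, which begins at 69088646 on the plus strand and had 45280 reads, but the 2 share 0 exonic bases. Whether reads of Atp6v1b2 were counted for Slc18a1 was not tested. By reads pooled over the libraries and divided by gene length, Slc18a2 was 125 times Slc18a1, with single libraries from 49.2 in female B to 269 in female C, and 188 times without female B. Slc18a3 (ENSMUSG00000100241, chromosome 14, 32462438 to 32464850, minus strand, 1 exon) had 3 reads in female B, 2 in male A and none in the other 4 libraries. Pooled over the libraries that is 0.0166 RPKM, with an exact Poisson interval from 0.00539 to 0.0387 RPKM that covers counting error only.

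Slc32a1 (ENSMUSG00000037771, chromosome 2, 158610767 to 158615748, plus strand) had no read in any of the 6 libraries. A count of 0 allows up to 3 reads, or 0.0086 RPKM over the 6 libraries and between 0.0439 and 0.0721 RPKM in a single library. Against the pooled limit, which takes the full gene length as countable, Slc17a6 was 16401-fold higher. Slc32a1 shares 24.9% of its exonic bases with an antisense gene, Gm14205, which also had 0 reads. If reads in the shared bases were counted for neither gene, the limit would be higher and the fold smaller. This was not tested.

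Slc1a1 (ENSMUSG00000024935, chromosome 19, 28835049 to 28913960, plus strand) had 10, 37 and 6 reads in female libraries A, B and C, and 34, 11 and 1 reads in male A, B and C, a mean of 0.121 ± 0.104 RPKM (SD, n = 6). Female B and male A were high and male C was lowest. Of its exonic bases, 42.6% are shared with 4430402I18Rik on the opposite strand, which held 31 reads. Whether counting used strand is not stated. Reads in the shared bases may therefore have been counted for either gene or for neither, and the Slc1a1 level may be too high or too low.

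All 8 members were compared by pairs within libraries, as the mean difference of log2(RPKM + 0.1) over the 6 libraries. Of 28 pairs, 22 kept 1 order in every library and passed a two-sided exact permutation test by sign flips (p = 0.03125, the smallest that 6 libraries allow, Benjamini-Hochberg adjusted p = 0.0398 over 28 pairs). Among neighbours in the order of levels, Slc17a6 exceeded Slc18a2 by 3.34 ± 0.24, Slc18a2 exceeded Slc17a7 by 5.31 ± 0.77, and Slc18a1 exceeded Slc18a3 by 0.80 ± 0.39 on the log2 scale (SD, n = 6). These counts take 0 reads as a level of 0. With 0 reads set to the 3 reads that a count of 0 allows, an alternative added after the data were seen, 18 of 28 pairs kept 1 order in every library and passed. The pairs lost were Slc1a1 and Slc18a1 against Slc18a3 and against Slc32a1, and Slc18a1 then exceeded Slc18a3 by 0.31 ± 0.49 in 4 of 6 libraries (adjusted exact permutation p = 0.208). The added 0.1 RPKM understates differences that involve the lowest genes.

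The middle of the order was not resolved. Slc17a7 and Slc17a8 differed by 0.34 ± 0.91 on the log2 scale, with Slc17a7 higher in 4 of 6 (exact permutation p = 0.5625, 0.583 after adjustment). Slc17a8 and Slc1a1 differed by 0.46 ± 0.69 (higher for Slc17a8 in 5 of 6 libraries, adjusted exact permutation p = 0.219). Slc1a1 and Slc18a1 differed by 0.03 ± 0.57, split 3 and 3 (adjusted exact permutation p = 0.8125). The pairs Slc17a7 with Slc1a1, Slc17a7 with Slc18a1 and Slc18a3 with Slc32a1 did not pass either, with adjusted exact permutation p of 0.245, 0.152 and 0.538. No order is read from the means of these pairs.

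In protein sequence the VGLUTs are close: the identity of Slc17a6 was 72.9% with Slc17a7 and 70.0% with Slc17a8, and that of Slc17a7 with Slc17a8 68.5%. The VMATs shared 60.04% identity, and either shared 34.8% or 36.01% with VAChT. Between families, identity ranged from 15.4% to 19.6%. The longest run of identical bases between any 2 members' transcripts was 25, between Slc17a6 and Slc17a8.

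The 2 abundant members varied between libraries with coefficients of variation of 19.7% for Slc17a6 and 19.1% for Slc18a2. The median over all tested genes was 21.0%, but their median level was only 3.93 RPKM. Among listed genes nearer Slc17a6 in level, Atp6ap2 (147 RPKM) varied by 13.1% and Scn10a (119 RPKM) by 14.1%. P2rx3 (125 RPKM) varied by 19.0% and Apoe (175 RPKM) by 41.2%. Relative to its own 6-library mean, Slc17a6 was 0.747 in female C and 0.778 in male B, and between 1.01 and 1.22 in the other 4 libraries. Slc18a2 was 0.748 in female C, 0.947 in male B, and 1.26 in female A. Female C and male B were the 2 lowest libraries for 18.4% of all tested genes and the 2 highest for 20.0%. They were the 2 lowest for 9 of 21 proton pump subunits, 3 of 12 monoamine genes (Tph2, Maoa and Maob), 1 of 9 glutamate supply genes (Slc38a2), 2 of 5 nociceptor markers (P2rx3 and Mrgprd), Ret, Fam19a4 and Etv1. They were the 2 highest for Slc17a5, Slc1a6, Ache, Ntrk2, Runx3 and 1 pump subunit, Atp6v1g2.

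These 2 libraries were the highest for 2 of the 7 glial markers. Apoe, a lipoprotein gene of glia, had 263 RPKM in female C and 268 RPKM in male B, against 108 to 155 RPKM in the other 4 libraries. Sox10, a glial transcription factor, had 5.24 RPKM in female C and 6.10 RPKM in male B, against 2.43 to 3.62 RPKM in the others. Fabp7, another glial gene, was lowest there at 252 RPKM in female C and 241 RPKM in male B. Their part in the spread of Slc17a6 was not tested.

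**Figure D2:**
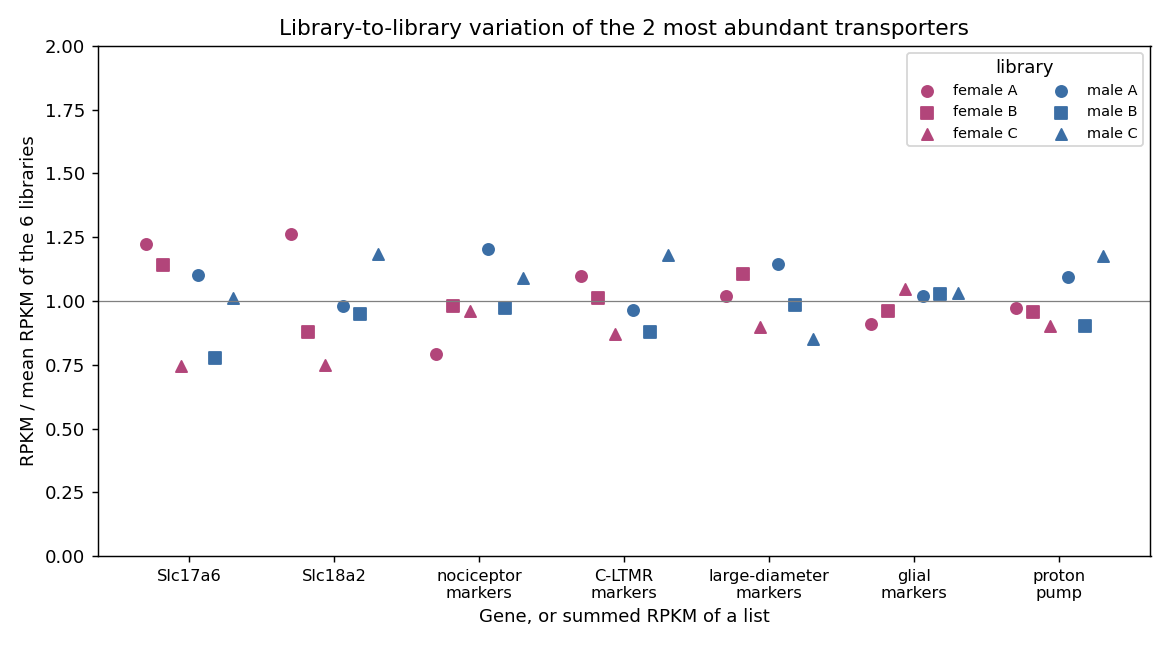
Level of Slc17a6, Slc18a2, 4 summed marker lists and the summed proton pump in each library, divided by its mean over the 6 libraries. Slc17a6 sits at 0.747 in female C and 0.778 in male B and between 1.01 and 1.22 elsewhere.

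The genes whose pattern over the 6 libraries was most like a member's were read from the correlation of log2(CPM + 1) over 8762 genes. The points are the same 6 libraries for every gene and share their depth and cell composition, so these are descriptions. For Slc17a6 they were Zfp597, a zinc-finger gene, Uba6, a ubiquitin-activating enzyme gene, and Shoc2, a scaffold of Ras signalling, with Pearson r of 0.999, 0.997 and 0.996 and Spearman rho of 1 in each. For Slc18a2 they were Pdzd8, Plat, which encodes tissue plasminogen activator, and Wapl, a factor that releases cohesin from chromatin, with Pearson r of 0.993, 0.991 and 0.979 and Spearman rho of 1, 1 and 0.943. Pdzd8 lies on the opposite strand of chromosome 19 from 59296084 to 59345780, leaving 71 bases between the ends of the 2 genes, which point toward each other. Whether reads from the end of Pdzd8 were counted for Slc18a2 was not tested.

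No member was called between the sexes. With edgeR's quasi-likelihood test on the whole table, 5 of 15026 tested genes were called at an adjusted p of 0.05, which is 0.0333%, with 1 higher in females and 4 higher in males. Of the 8 members, 5 passed the filter on low counts, and 0 of 5 were called in either direction. None of the 5 had an unadjusted edgeR p under 0.05, against 166 of all 15026 tested genes. Without female C, 1 of 6 tested members and 802 of 15276 tested genes did. By DESeq2 or limma-voom, 0 of 5 were called. The 3 members that did not pass the filter were Slc18a1, Slc18a3 and Slc32a1. A p that misses the threshold does not show that the sexes are alike.

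Slc17a6 averaged 148 ± 36.4 RPKM in females and 138 ± 23.8 RPKM in males (SD, n = 3 each), a log2 fold change of 0.11 ± 0.21 (SE, edgeR adjusted p = 0.999679). Slc18a2 averaged 13.5 ± 3.73 RPKM in females and 14.5 ± 1.78 RPKM in males (SD, n = 3 each), a log2 fold change of -0.11 ± 0.22 (SE, edgeR adjusted p = 0.999679). The low members had wider errors, with female over male log2 fold changes of -0.89 ± 0.57 for Slc17a7, 0.81 ± 0.48 for Slc17a8 and 0.17 ± 0.85 for Slc1a1 (SE, edgeR). Without male B the value for Slc17a7 was -0.14. The sign for Slc17a6, Slc18a2 and Slc1a1 turned when single libraries were left out, so no direction is read from them.

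**Figure D3:**
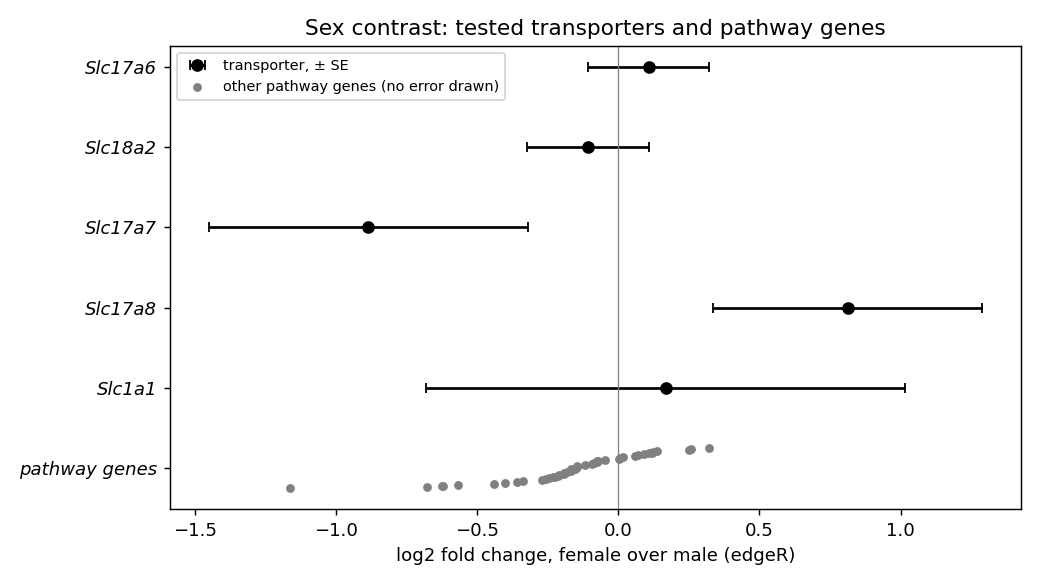
Female over male log2 fold change from edgeR (horizontal axis) for the 5 members tested, with bars of 1 standard error, and for the other pathway genes as grey points without bars. Slc17a6 at 0.11 and Slc18a2 at -0.11 lie beside 0, and the 3 low members have wider bars.

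Among the listed genes of glutamate supply and metabolism, 7 of 9 exceeded 1 RPKM. Highest were Got1 with 74.6 ± 9.79 RPKM and Got2 with 56.6 ± 8.44 RPKM, the cytosolic and mitochondrial aspartate aminotransferases, and Slc38a2, a glutamine transporter, with 42.5 ± 4.43 RPKM (SD, n = 6 each). Gls2, the liver-type glutaminase, which makes glutamate from glutamine, had 0.516 ± 0.135 RPKM (SD, n = 6). Slc38a3, another glutamine transporter, was lowest at 0.168 ± 0.0776 RPKM from 74 reads (SD, n = 6). Slc38a3 was also the only 1 of 46 tested pathway genes with an unadjusted edgeR p below 0.05 for sex. Over all tested genes, 166 of 15026 had such a p. Its female over male log2 fold change was -1.16 ± 0.47 (SE), and it was not called (edgeR adjusted p = 0.999679).

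Among the other SLC17 genes, Slc17a5, the lysosomal sialic acid exporter sialin, had 9.60 ± 1.13 RPKM (SD, n = 6). Slc17a9, the vesicular nucleotide transporter, had 0.0287 ± 0.0283 RPKM from 10 reads, and Slc17a1, Slc17a2, Slc17a3 and Slc17a4 had 0 to 3 reads in all. Of the plasma membrane glutamate transporters, Slc1a6 was highest at 1.33 ± 0.490 RPKM, then Slc1a3 at 0.451 ± 0.0635 RPKM and Slc1a2 at 0.245 ± 0.0939 RPKM (SD, n = 6). Slc1a7 had 0.0387 ± 0.0311 RPKM from 16 reads. Slc1a2 and Slc1a3 are the main glutamate transporters of glia in the brain, and both stood above the member Slc1a1 in the mean.

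The GABA and glycine genes were low except for breakdown. Abat, which breaks down GABA, had 8.15 ± 0.668 RPKM, Slc6a13, a GABA transporter, 1.39 ± 0.935 RPKM and Slc6a11, another, 0.756 ± 0.218 RPKM (SD, n = 6). Slc6a13 reached 3.26 RPKM in male A, against 0.834 to 1.39 RPKM in the other 5 libraries. Gad1, an enzyme that makes GABA, had 0.255 ± 0.145 RPKM, while Gad2 had 1 read and Slc6a5, the neuronal glycine transporter, 2 reads in all. All 6 inhibitory interneuron markers were under 1 RPKM, with Pax2 and Lhx5 at 0 reads, and their summed level was 0.139 to 0.379 RPKM in females and 0.126 to 0.517 RPKM in males.

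The monoamine genes were mixed. Th, the first enzyme of catecholamine synthesis, had 14.0 ± 3.42 RPKM, and Maoa and Maob, which break monoamines down, 43.7 ± 6.41 and 6.83 ± 0.616 RPKM (SD, n = 6 each). Ddc, the next enzyme in dopamine and serotonin synthesis, had 0.0565 ± 0.0370 RPKM from 33 reads, and Dbh, Pnmt and Slc6a2 had 4, 7 and 0 reads in all. Tph2, a neuronal tryptophan hydroxylase, had 2.40 ± 0.643 RPKM. Sympathetic neuron and chromaffin cell markers were all under 1 RPKM, with Phox2a and Slc6a2 at 0 reads.

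Slc18a2 was also set beside markers of mast cells and platelets, which also store monoamines. Kit had 19.3 ± 3.69 RPKM, and the other 7 of the 8 markers stayed under 1 RPKM in the mean, with Cpa3, a mast cell protease gene, at 0.587 ± 0.193 RPKM and Mcpt4 at 1 read (SD, n = 6). The summed level of this list was 19.4 to 27.1 RPKM in females and 18.6 to 19.2 RPKM in males. Of the acetylcholine genes, Chat, the enzyme that makes it, had 1 read in all, Slc5a7, the choline transporter, 2.42 ± 0.535 RPKM and Ache, which breaks it down, 7.34 ± 3.64 RPKM (SD, n = 6).

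The vesicular proton pump that drives these vesicular transporters was abundant, with 18 of 21 subunits above 1 RPKM and a median of 121 RPKM. Atp6v0e2 was highest at 434 ± 67.2 RPKM, followed by Atp6v1h at 362 ± 42.3 RPKM and Atp6v1e1 at 349 ± 54.4 RPKM (SD, n = 6). Atp6v1b1, a subunit of kidney and inner ear, had 2 reads in all. Of the 63 genes on the pathway lists, 46 were tested for sex and 0 were called, with a median female over male log2 fold change of -0.15 against -0.005 over all tested genes. Of the 46, 19 were pump subunits, and the difference between the medians was not tested.

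**Figure D4:**
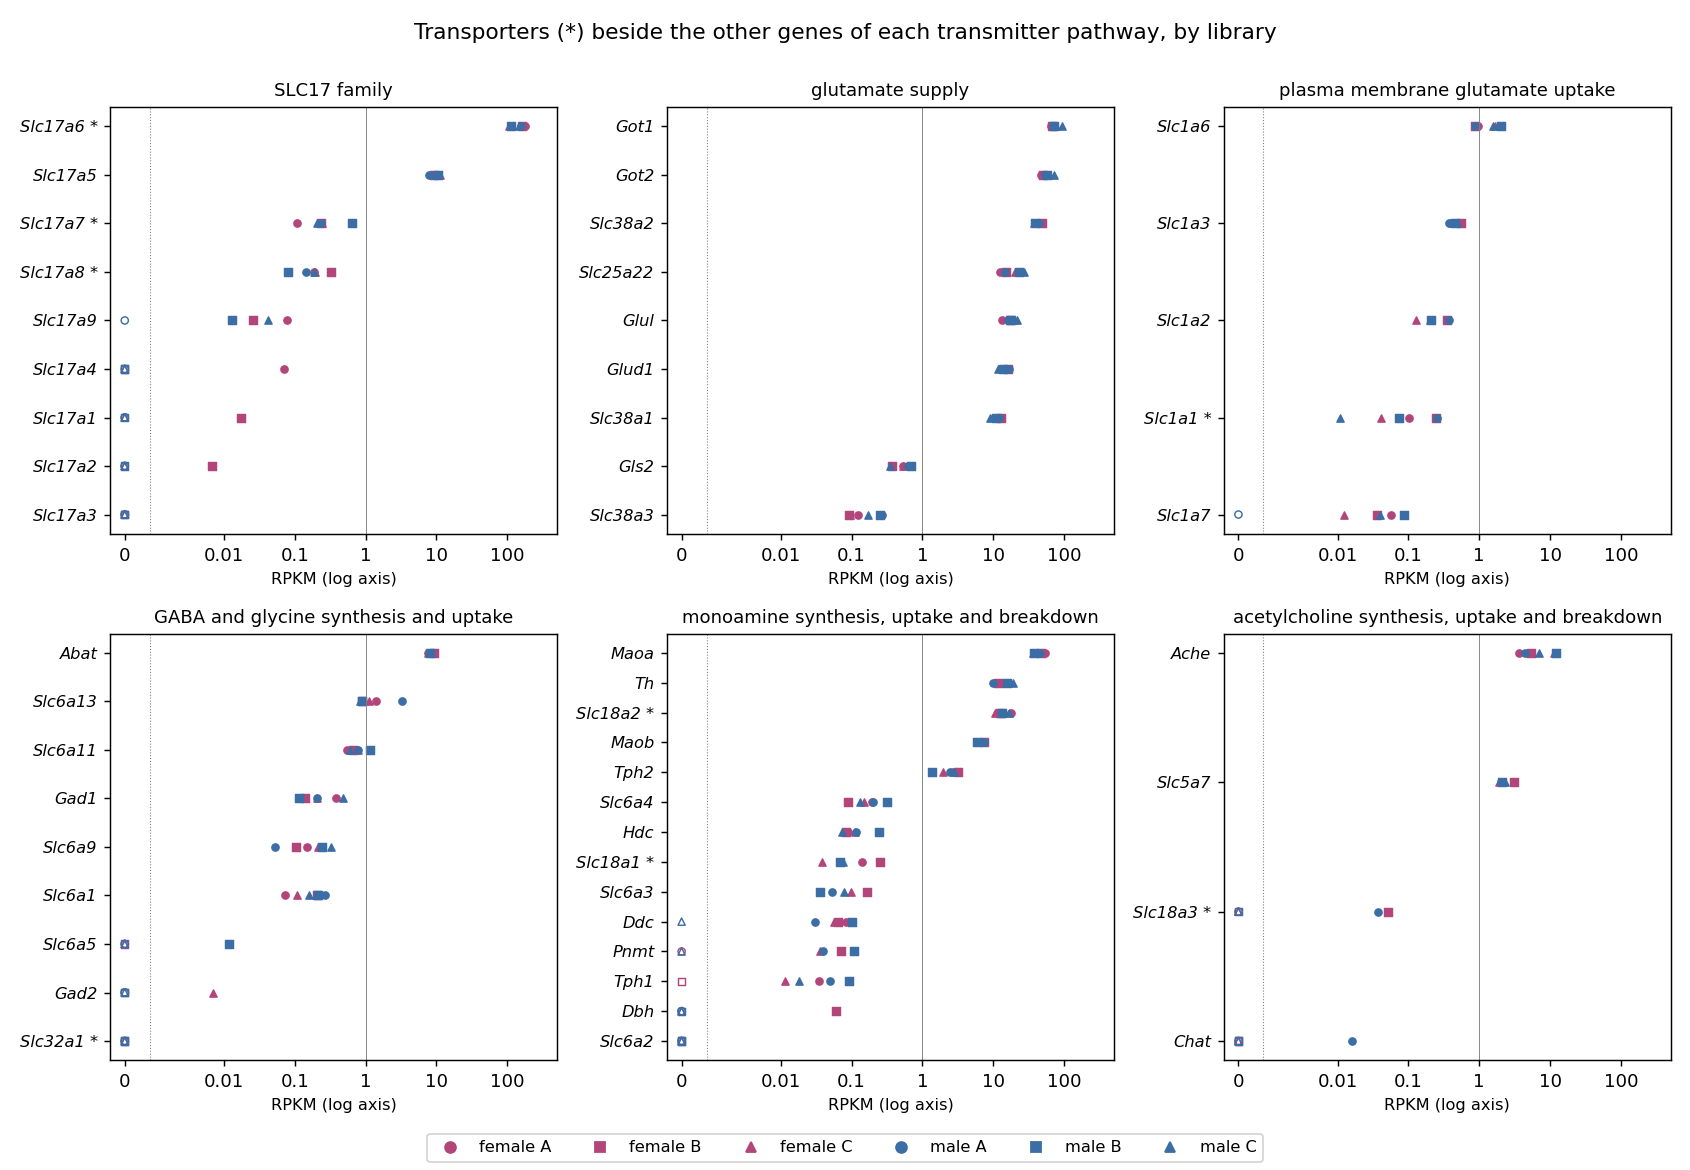
RPKM on a log axis of the pathway genes in the 6 libraries, in 6 panels by transmitter, with colour for sex, symbol for the letter, and asterisks for the 8 members. Slc17a6 lies farthest right of the SLC17 genes, while Chat, Gad2 and Dbh lie near or at 0 reads.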

How the data were processed

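RNA from EGFP-sorted embryonic ganglion cells was sequenced in 6 libraries, 3 female and 3 male. The authors deposited a read count for each of 41388 genes in each library, made with featureCounts 1.4.5 of Subread on GRCm38.p2 per the submitters' processing notes. The CPM and RPKM values deposited by the authors are those counts per library total and, for RPKM, per kilobase of the deposited gene length; both were used only to check this. The aligner's settings, the gene annotation's release, whether counting used strand and how multi-mapping reads were handled are not given in the sources used. Per the labels' protocols, 10 ng of RNA was amplified with a SMARTer kit and 12 PCR cycles, so reads are not independent molecules, and counting intervals (95%) and the limit for a count of 0 (3 counts) cover counting error only.

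RPKM was recomputed from the counts with TMM-scaled library sizes in edgeR 4.0.16 (R 4.3.3). Symbols came from GENCODE M21, which named 40254 identifiers (97.26%). Pairs of members were compared by exact sign-flip permutation over 6 libraries on log2(RPKM + 0.1). Sex was tested with edgeR's quasi-likelihood test after filterByExpr at its defaults, with Benjamini-Hochberg adjustment over all tested genes, and checked with DESeq2 1.42.0 and limma 3.58.1; the fit was tested on simulated data. The libraries are different embryos or pools of embryos, so p-values measure the spread between these libraries. Members and gene lists were chosen with earlier results of these data known. The text names every member, the 3 genes most like each of the 2 most abundant members, and from each pathway list the 3 highest, the lowest and any called genes (all of a list of 4 or fewer); any further gene was picked with its values in view. A few genes of the lists are not reported here and were left out of the lists' counts and sums. Protein identities were computed with Biopython 1.88 (BLOSUM62) from the longest open reading frame of a GENCODE M21 transcript of each member, in place of the RefSeq proteins first planned.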

Additional observations from a re-analysis of the deposited data

Results flagged for a closer look

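Slc17a7 in male B, at 0.653 RPKM from 46 reads, lay far above the other 5 libraries, which had 0.107 to 0.243 RPKM from 5 to 17 reads. Its gap to the nearest library was 0.752 of the whole range, against a critical value of 0.625 for 6 libraries, which chance exceeds in about 1 in 20 groups. Both ends of 7 members were examined, so at least 1 such value by chance is likelier than that. Male B pooled 3 embryos. Among the markers of large-diameter neurons, 2 of 7, Runx3 and Ntrk2, had their 2 highest levels in male B and female C, and 1, Etv1, its 2 lowest. Over all tested genes, these libraries were the 2 highest for 20.0% and the 2 lowest for 18.4%. Runx3 had only 83 reads in all. The summed list in male B was 0.984 of its 6-library mean, and Pvalb had 7.21 RPKM in male B, inside the range of 0.840 to 11.3 RPKM over all 6 libraries. Their part in the Slc17a7 level was not tested.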

How the results depend on the processing

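Of the 28 pairs, 22 kept 1 order and passed under RLE factors, unscaled totals and a pseudocount of 1, and 21 with CPM in place of RPKM. With 0 reads set to 3 reads, chosen after seeing the data, 18 passed, and Slc18a3 over Slc32a1 was -0.00728. With any library left out the number passing was 0, since 5 libraries allow a smallest exact p of 0.0625, while 22 to 23 pairs still kept 1 order. The difference of Slc17a7 over Slc17a8 was -0.16 with CPM, and ran from -0.00675 to 0.50 with each library left out; that of Slc1a1 over Slc18a1 ran from -0.17 to 0.17. With each library left out, the female over male log2 fold change ran from -0.0300 to 0.29 for Slc17a6, from -0.35 to 0.0451 for Slc18a2 from -0.74 to 1.47 for Slc1a1 and from -1.15 to -0.14, without male B, for Slc17a7. With no filter on low counts 12 genes were called for sex, against 5, out of 25803 tested in place of 15026, and no member was called. Deviations from the mean of each sex had correlations of 0.284, -0.294 and -0.0773 between same-lettered female and male libraries. The labels do not say what the letters mark, so whether they pair libraries is not known. The highest of the 9 female with male correlations was 0.549, between female C and male B. With the letter as a replicate block 5 genes and 0 members were called. Depth limits Slc17a7, Slc17a8, Slc18a1, Slc18a3, Slc32a1 and Slc1a1, each with at most 110 reads over 6 libraries.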
